A study of Mus musculus with 9 samples.

Results

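The interferon-inducible GTPases described here are 8 genes: the immunity-related GTPases Iigp1, Igtp, Irgm1 and Irgm2, and the guanylate-binding proteins Gbp2, Gbp3, Gbp5 and Gbp7. They were found by gene symbol in an expression table of mouse hippocampal area CA1, where each has 1 of the 24489 rows. They were selected on their levels in the same 9 libraries, so their levels and group differences are given as a description that no test supports. The 9 libraries form 3 groups of 3 biological replicates from C57BL/J6 mice aged 9 to 12 weeks. All mice carried an adeno-associated virus (AAV), a vector that brings a gene into cells. In the group called trained here, the AAV encoded a short hairpin RNA (shRNA) against the histone variant H2A.Z and the mice had undergone contextual fear conditioning, in which a chamber is paired with a foot shock. In the group called naive the AAV encoded the same kind of hairpin against H2A.Z and the mice were not trained. In the control group the AAV encoded a scrambled shRNA. The sources used here do not give the training status of the control mice, the time of tissue collection, or the promoter and target cells of the vector. The tissue is bulk CA1, so more cells of a type and more RNA per cell cannot be told apart.

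Both families are made by cells that receive interferon. Interferon-gamma binds the receptor made of Ifngr1 and Ifngr2, the kinases Jak1 and Jak2 pass the signal on, and transcription factors, Irf1 among them, switch on the GTPase genes through promoter elements such as the gamma-activated site and the interferon-stimulated response element. The GTPase proteins gather on the membranes around intracellular parasites and bacteria and help to break them. Irgm1, Irgm2 and Igtp (also called Irgm3) sit on membranes of the host cell and hold effector GTPases such as Iigp1 (also called Irga6) inactive there. In the brain these genes are known for low expression at rest and strong induction in glia, and in other cells, by interferon.

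The promoters are shown because they carry the sequence feature that the members share. RefSeq promoter windows on GRCm38.p6 (250 bases before to 50 bases after an annotated start) matched 7 of the 8 members. The core of the interferon-stimulated response element was searched as GAAANNGAAA on both strands, where N is any base. It was present in the 250 bases before a start in 7 of 7 of these genes, against 3.46% of all 27025 genes with a window. Each line gives 100 bases, 5′ to 3′ on the gene's strand, with the core in capitals (read as its reverse complement in the 4 guanylate-binding protein genes). They are the 100 bases before the start at chr11:58199456-58199555 for Igtp, chr11:58214877-58214976 for Irgm2, chr11:48871421-48871520 (minus strand) for Irgm1, chr3:142620563-142620662 for Gbp2, chr3:142559944-142560043 for Gbp3 and chr3:142530236-142530335 for Gbp7. For Gbp5, whose core lies farther from the start, they are chr3:142496739-142496838.
Igtp: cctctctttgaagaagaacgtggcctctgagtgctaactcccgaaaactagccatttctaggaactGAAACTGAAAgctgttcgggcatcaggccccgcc
Irgm2: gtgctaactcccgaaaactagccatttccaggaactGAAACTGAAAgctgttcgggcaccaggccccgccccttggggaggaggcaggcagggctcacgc
Irgm1: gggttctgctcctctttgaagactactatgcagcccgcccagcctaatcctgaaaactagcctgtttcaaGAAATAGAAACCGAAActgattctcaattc
Gbp2: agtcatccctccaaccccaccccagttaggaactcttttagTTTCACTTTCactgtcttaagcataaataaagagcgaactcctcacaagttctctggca
Gbp3: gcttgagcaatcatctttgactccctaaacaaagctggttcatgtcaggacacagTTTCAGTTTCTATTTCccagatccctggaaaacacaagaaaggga
Gbp7: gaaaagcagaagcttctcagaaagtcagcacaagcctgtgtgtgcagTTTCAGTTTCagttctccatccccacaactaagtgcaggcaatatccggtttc
Gbp5: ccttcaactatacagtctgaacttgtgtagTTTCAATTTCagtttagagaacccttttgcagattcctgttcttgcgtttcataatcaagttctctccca

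The cores lay within 100 bases of the start in 6 of these 7 genes, and from -165 to -156 in Gbp5. Gbp3 and Irgm1 each held 2 overlapping cores. A second annotated start of Gbp3 had none. The promoter windows of Igtp and Irgm2, neighbours on chromosome 11, shared an unbroken run of 61 bases. The gamma-activated site, searched as TTCNNNGAA, was found before the start of Igtp, Irgm2, Gbp5 and Gbp7, which is 4 of 7 genes against 8.13% of all genes. In no window did it overlap the response element core. These matches describe letters in the windows, and no binding was measured.

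**Figure D1:**
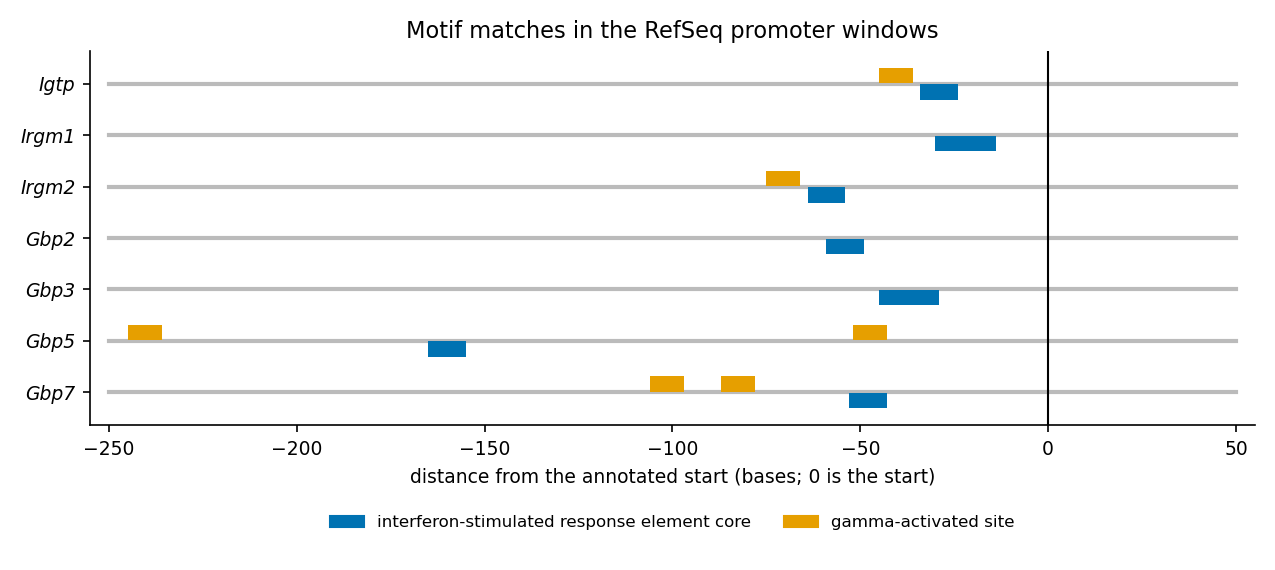
Each grey line is the promoter window of a member, with the distance from the annotated start in bases on the x axis. Blue bars mark the interferon-stimulated response element core, seen in all 7 windows shown, and orange bars the gamma-activated site, seen in 4 of them.

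By GENCODE M21 on GRCm38, the assembly also called mm10, the 4 guanylate-binding protein genes lie side by side on the plus strand of chromosome 3. Gbp5 spans 142493978 to 142522344, Gbp7 142530342 to 142550149, Gbp3 142560026 to 142573209 and Gbp2 142620602 to 142638008. Irgm1 lies on the minus strand of chromosome 11 from 48861968 to 48871683. Igtp lies on its plus strand from 58199556 to 58207591, and the annotated Irgm2 gene, from 58199618 to 58222782, overlaps it. Iigp1 lies on the plus strand of chromosome 18 from 60376027 to 60392634. Since the reads were 50 bases long, runs of 50 bases that a member's transcripts share with another gene mark where a read cannot be assigned by its own sequence. Both ends of a fragment were read, and the other end, not considered here, can still place such a read. Shared runs made up 11.8% of the runs of Igtp and 7.77% of those of Irgm2, mostly shared between these 2 genes. They made up 12.7% in Gbp7, chiefly with the predicted gene Gm43802, and 3.75% in Gbp3, nearly all with Gbp7. In the other 4 members the share was 0.31% to 2.03%.

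Levels are the authors' FPKM values, in which fragment numbers are divided by transcript length and library size, which allows genes of different length to be compared. The files give no counts. From the steps between low values, 1 FPKM corresponded to about 19.0 to 26.7 fragments per kilobase of transcript in a library, and this estimate gives no counting interval. Total FPKM per library ranged from 297249 to 443097. H2afz, a gene of the targeted histone variant, averaged 26.1 ± 2.31 FPKM in trained, 27.0 ± 1.63 in naive and 27.1 ± 1.43 in control libraries (SD, n = 3 each). Its ranges overlapped between all groups, and limma gave a log2 fold change of -0.03 (SE 0.06, adjusted p = 0.844) for both H2A.Z shRNA groups against control. H2afv, the other H2A.Z gene, averaged 14.2 ± 1.04, 15.6 ± 0.217 and 15.03 ± 0.993 FPKM in the trained, naive and control libraries. The target mRNA thus does not separate the libraries by label, and the directions below are between libraries labelled trained, naive and control. Markers of CA1 pyramidal neurons were present, with a sum over 10 genes of 298 to 371 FPKM in trained, 285 to 326 in naive and 319 to 439 in control libraries.

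All 8 GTPase genes had their highest level in the naive group, and within it in naive replicate 2. Summed over the 8 genes, the level was 19.0, 44.9 and 36.3 FPKM in the trained libraries, 62.7, 337 and 94.5 FPKM in the naive libraries, and 18.7, 33.6 and 21.4 FPKM in the control libraries. Each naive library therefore stood above each library of the other groups, while the trained and control ranges overlapped. The naive mean of the sum was 6.70 times the control mean, and 3.20 times without naive replicate 2. The trained mean was 1.36 times the control mean and 0.203 times the naive mean.

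Iigp1, the effector that attacks parasite vacuoles, had the largest ratio of naive to control means among the 8 genes. It stood at 1.55, 3.68 and 3.69 FPKM in trained, 10.3, 60.7 and 17.8 FPKM in naive and 1.34, 2.33 and 1.01 FPKM in control libraries. The naive mean of 29.6 ± 27.2 FPKM was 19.0 times the control mean of 1.56 ± 0.686 FPKM, and 9.01 times without naive replicate 2 (SD, n = 3 each). The trained mean of 2.97 ± 1.23 FPKM was 1.91 times the control mean, with overlapping ranges.

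Igtp, a regulatory GTPase of host membranes, stood at 4.02, 8.85 and 7.27 FPKM in trained, 12.9, 77.7 and 15.3 FPKM in naive and 2.48, 4.97 and 2.95 FPKM in control libraries. Its 77.7 FPKM in naive replicate 2 was the highest single value of any member. Irgm1, a regulator also needed for resistance to mycobacteria in mice, stood at 4.89, 11.1 and 8.68 FPKM in trained, 12.3, 63.6 and 17.0 FPKM in naive and 4.34, 8.54 and 5.90 FPKM in control libraries. It was the member with the highest mean in both the trained group (8.24 ± 3.15 FPKM) and the control group (6.26 ± 2.12 FPKM). Irgm2, the remaining regulator, was lower, at 2.13, 4.27 and 3.36 FPKM in trained, 5.06, 25.6 and 6.18 FPKM in naive and 2.08, 2.77 and 1.93 FPKM in control libraries. In all 3 regulators the naive libraries lay above every other library, and the trained range overlapped the control range.

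Gbp2, which is recruited to the vacuole of Toxoplasma in mouse cells, stood at 1.92, 6.63 and 4.21 FPKM in trained, 10.2, 56.9 and 10.4 FPKM in naive and 1.69, 3.10 and 2.04 FPKM in control libraries. Its naive mean was 11.3 times the control mean, the largest ratio among the guanylate-binding proteins. Gbp5, which promotes assembly of the Nlrp3 inflammasome, had the lowest mean of the 8 genes in each group. It stood at 0.872, 2.39 and 2.17 FPKM in trained, 2.78, 12.3 and 4.13 FPKM in naive and 0.946, 1.97 and 0.919 FPKM in control libraries. For both genes the naive libraries lay above all others, and the trained and control ranges overlapped.

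Gbp3 and Gbp7 had the lowest ratios of trained to control means among the 8 genes. Gbp3, a further guanylate-binding protein of the chromosome 3 cluster, stood at 2.30, 5.23 and 4.60 FPKM in trained, 6.01, 26.6 and 16.4 FPKM in naive and 4.25, 7.07 and 4.87 FPKM in control libraries. It was the 1 member whose naive range reached into the control range, with naive replicate 1 below control replicate 2, and its trained mean was 0.749 times the control mean. Gbp7, which takes part in oxidative defence against bacteria, stood at 1.28, 2.70 and 2.34 FPKM in trained, 3.10, 13.6 and 7.29 FPKM in naive and 1.61, 2.84 and 1.82 FPKM in control libraries. Its naive libraries lay above all others, and its trained and control ranges overlapped. The Gbp7 trained mean of 2.10 ± 0.741 FPKM and control mean of 2.09 ± 0.659 FPKM differed by less than either SD.

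**Figure D2:**
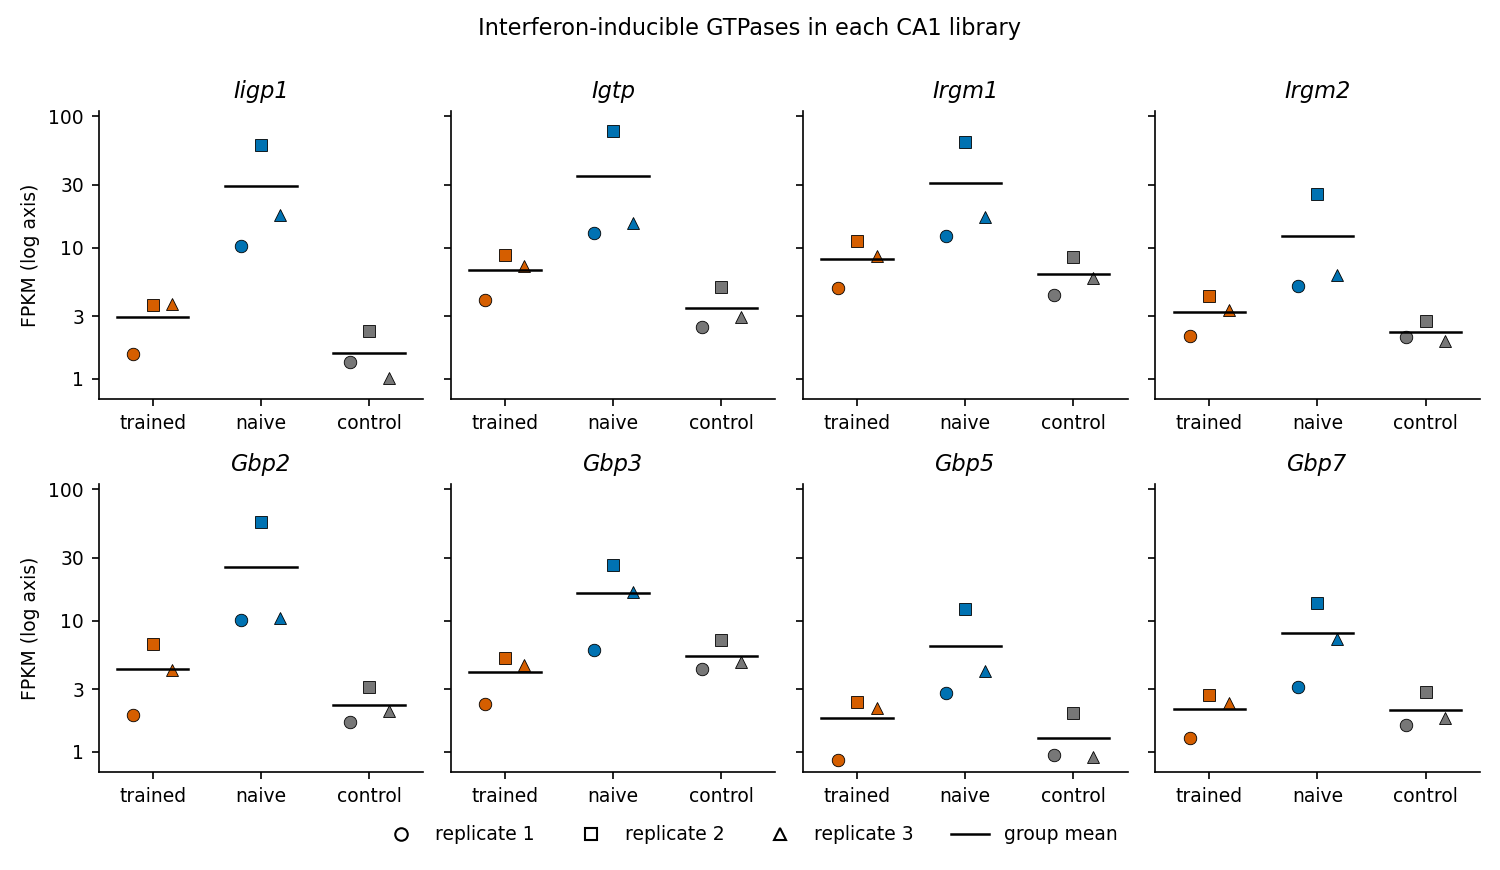
Each panel plots 1 gene, with FPKM on a log axis, the 3 groups on the x axis, a point per library (shape gives the replicate) and a bar for the group mean. Naive replicate 2 is the highest point in all 8 panels, and the trained and control points overlap in all 8.

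The order of the group means was naive, then trained, then control for 7 genes, with Gbp3 higher in control than in trained libraries. The trained and control means differed by more than the SD of both groups for Igtp and Iigp1 only, and the 2 ranges overlapped for all 8 genes. Replicates also ranked alike across the members. Naive replicate 2 was the highest of its group in 8 of 8 members and naive replicate 1 the lowest in 8 of 8. Trained replicate 1 was the lowest of its group in 8 of 8, and control replicate 2 the highest of its group in 8 of 8. Over all 12327 genes tested, these libraries held those positions in 30.2% (naive replicate 2 highest), 41.4% (naive replicate 1 lowest), 39.9% (trained replicate 1 lowest) and 31.7% (control replicate 2 highest) of genes.

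Limma was fitted on log2(FPKM + 1) over all 12327 genes whose average was 1 FPKM or more. All 8 members passed the filter, and each also had a mean of at least 1 FPKM in the control group alone. Called means an adjusted p under 0.05 over all genes tested. The added 1 makes the log2 fold changes smaller than the ratios of FPKM given above. Since the members were chosen with these values known, the counts below are a description.

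For trained against naive libraries, 8 of 8 members had all trained libraries below all naive libraries, as did 9.16% of all genes. Their log2 fold changes ran from -2.62 (SE 0.55) for Iigp1 to -1.23 (SE 0.44) for Gbp5, with a median of -1.56, beside -0.02 over all genes. None of the 8 was called by limma (smallest adjusted p = 0.481), as against 0.00811% of all genes. An unadjusted p under 0.05 was reached by 8 of 8 members and by 8.28% of all genes. Without naive replicate 2 the median was -0.98.

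For naive against control libraries, 7 of 8 members were higher in each naive than in each control library, against 11.2% of all genes. The log2 fold changes ran from 1.25 (SE 0.46) for Gbp3 to 3.24 (SE 0.55) for Iigp1, with a median of 1.76, beside 0.02 over all genes. None of the 8 was called by limma (smallest adjusted p = 0.176), as against 0% of all genes. An unadjusted p under 0.05 was reached by 8 of 8 members and by 15.5% of all genes. Without naive replicate 2 the median was 1.08.

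For trained against control libraries, 0 of 8 members were higher without overlap, against 6.4% of all genes. The log2 fold changes ran from -0.37 (SE 0.46) for Gbp3 to 0.77 (SE 0.60) for Igtp, with a median of 0.34, beside -0.01 over all genes. None was called by limma (smallest adjusted p = 0.716), as against 0.00811% of all genes. An unadjusted p under 0.05 was reached by 0 of 8 members and by 7.72% of all genes. This comparison turned on single libraries: without trained replicate 1, 6 of 8 members were higher without overlap (median 0.59), and without control replicate 2, 3 of 8 were. Without trained replicate 2 the median was 0.16. The comparisons share libraries, so their values are given side by side only. For both H2A.Z shRNA groups together against control, 0 of 8 members were higher without overlap (2.94% of all genes), and the median was 1.05. None was called by limma (smallest adjusted p = 0.287), as against 0% of all genes, and 6 of 8 had an unadjusted p under 0.05, beside 12.4% of all genes.

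**Figure D3:**
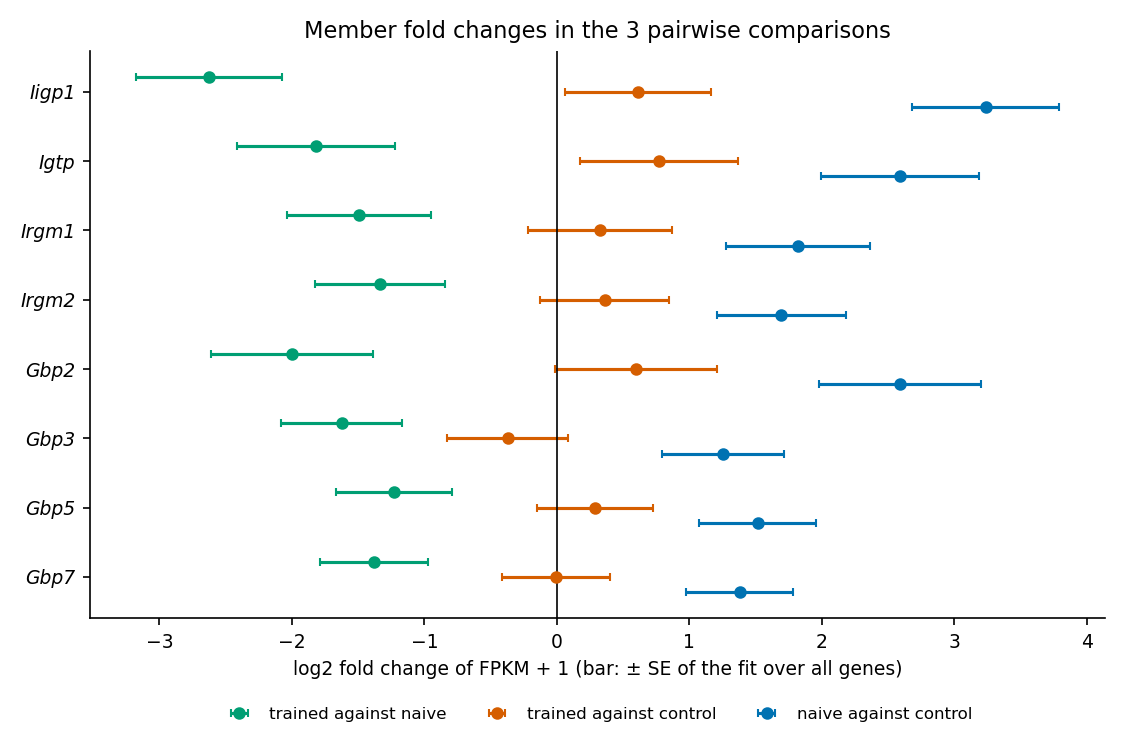
Log2 fold changes of FPKM + 1 (x axis) for the 8 members (y axis) in 3 comparisons, with bars for the SE of the fit. Estimates for trained against naive lie between -2.62 and -1.23, those for naive against control between 1.25 and 3.24, and those for trained against control between -0.37 and 0.77.

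The make-up of the sum, which does not depend on library scaling, differed between trained and control libraries although their totals overlapped. Gbp3 made up 12.1, 11.6 and 12.7% of the summed FPKM of the 8 genes in trained, 9.59, 7.90 and 17.4% in naive and 22.7, 21.1 and 22.7% in control libraries. Igtp made up 21.2, 19.7 and 20.02% in trained, 20.7, 23.05 and 16.2% in naive and 13.2, 14.8 and 13.7% in control libraries. For both genes every trained and every naive library lay on the same side of all control libraries. The ratio of Igtp to Gbp3 within a library was accordingly 1.75, 1.69 and 1.58 in trained, 2.16, 2.92 and 0.931 in naive and 0.584, 0.703 and 0.605 in control libraries.

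The ratio of Gbp7 to its neighbour Gbp3 was narrower, at 0.555, 0.517 and 0.508 in trained, 0.517, 0.512 and 0.444 in naive and 0.379, 0.402 and 0.374 in control libraries. Iigp1 took 8.20, 8.20 and 10.2% of the sum in trained, 16.4, 18.02 and 18.9% in naive and 7.14, 6.94 and 4.73% in control libraries, so its share set the naive libraries apart from both other groups. The shares of Irgm1 and Irgm2 did so too, in the other direction. They were at most 19.7% and 8.08% in naive libraries and at least 23.2% and 8.24% in all others. The ratio of Irgm1 to Irgm2 ran from 2.30 to 2.61 in trained, 2.43 to 2.75 in naive and 2.09 to 3.09 in control libraries, with overlapping ranges. These ratios were chosen after their values were seen and were not tested.

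**Figure D4:**
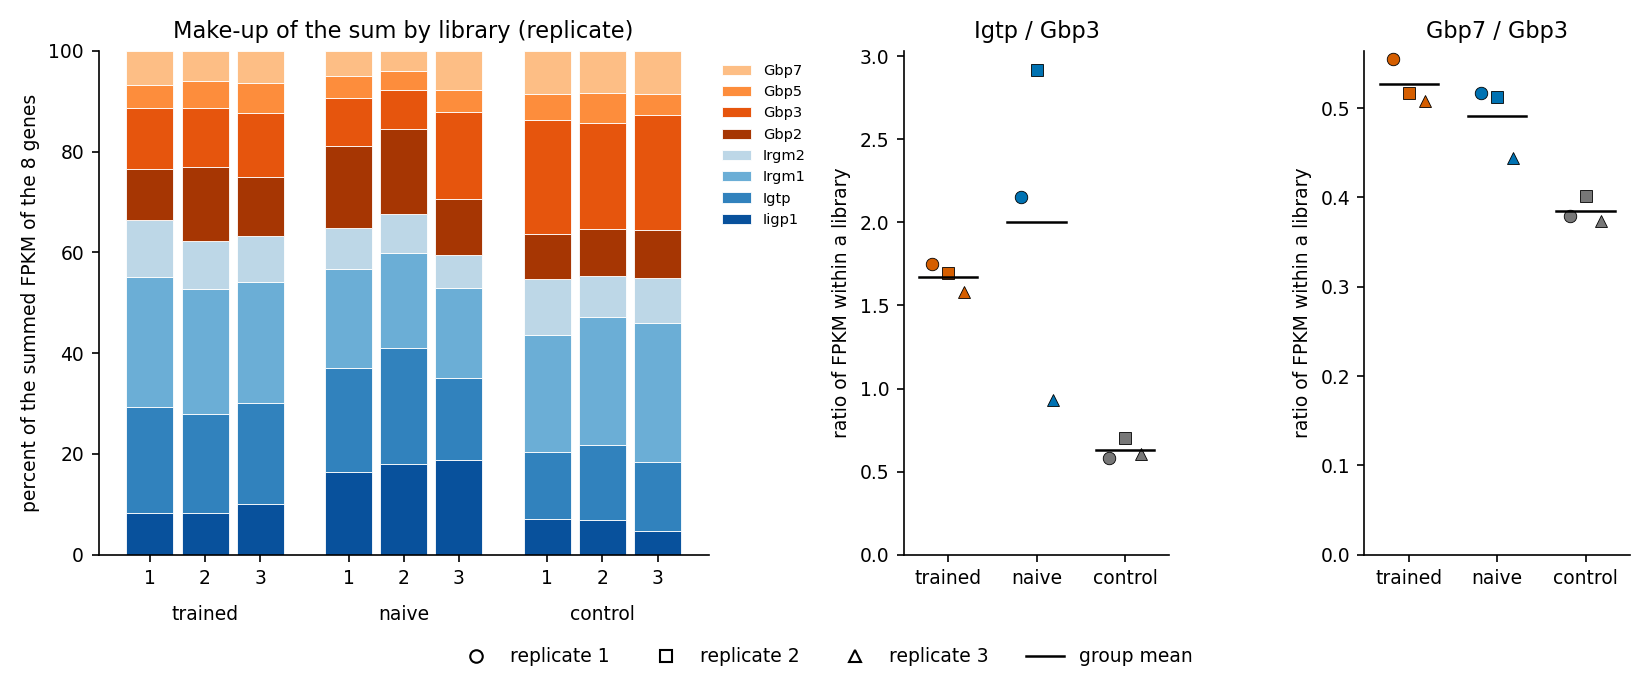
Left, percent of the summed FPKM of the 8 genes (y axis) taken by each gene in each library; middle and right, the ratio of FPKM of Igtp to Gbp3 and of Gbp7 to Gbp3 in each library, with a bar for the group mean. Control libraries sit at 0.584 to 0.703 for Igtp to Gbp3, below all trained and naive libraries.

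The lists of related genes that follow are to be read against all genes tested in naive against control, of which 15.5% had an unadjusted p under 0.05 and 55.1% an estimate above 0. Among further GTPase family genes, 13 of 25 listed were tested. Limma called 0 of them in either direction in the 4 comparisons, with 9 at an unadjusted p under 0.05 in naive against control, and the naive against control median log2 fold change was 1.33. Some of them, among them Gbp10, Gm4951, Gm12250 and Mx1, averaged under 1 FPKM in both the trained and the control group. These passed the filter only through the naive libraries, so this count and median are partly set by the filter. Gbp6, a further guanylate-binding protein, averaged 2.17 ± 0.958 FPKM in trained, 10.6 ± 10.7 in naive and 1.15 ± 0.460 in control libraries. Gbp10, a close relative of Gbp6, averaged 0.912 ± 0.449, 5.52 ± 6.33 and 0.401 ± 0.147 FPKM in the trained, naive and control libraries. Tgtp1 and Tgtp2, near-identical effector GTPases whose reads are hard to assign, averaged 7.36 ± 8.24 and 8.89 ± 10.1 FPKM in naive and 0.752 ± 0.458 and 0.849 ± 0.367 FPKM in control libraries. In 8 of the 13 tested genes the highest library was again naive replicate 2.

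In the signalling chain above the GTPases, 18 of 24 listed genes were tested and limma called 0 in either direction in the 4 comparisons, with 6 at an unadjusted p under 0.05 in naive against control. Ifng, the ligand, was listed at 0 in 8 libraries and at 0.267 FPKM in naive replicate 2. Ifngr1, the ligand-binding receptor chain, stood at 6.63, 8.33 and 7.35 FPKM in trained, 6.24, 8.71 and 5.51 in naive and 5.36, 5.43 and 5.81 in control libraries. Ifngr2, the other chain, averaged 24.9 ± 1.20 FPKM in trained, 26.05 ± 0.866 in naive and 25.9 ± 1.74 in control libraries. The libraries of Ifngr2 overlapped between all groups, and Ifngr1 was higher in each trained than in each control library.

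Irf1, a transcription factor that binds the response element, stood at 3.05, 5.27 and 3.65 FPKM in trained, 5.64, 20.3 and 5.40 in naive and 2.74, 2.70 and 2.13 in control libraries, with its highest level in naive replicate 2. Each trained library was above each control library for Irf1, where the ranges of all 8 GTPases overlapped. Ptpn6, a phosphatase of immune cells, averaged 2.88 ± 0.759, 3.71 ± 2.31 and 1.66 ± 0.322 FPKM in the trained, naive and control libraries. Stat3, a transcription factor of cytokine signalling, averaged 12.1 ± 0.401, 13.9 ± 2.46 and 11.1 ± 0.620 FPKM in the same groups.

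Of 23 other interferon-gamma targets, 21 were tested, and limma called 0 in either direction in the 4 comparisons, with 17 at an unadjusted p under 0.05 in naive against control. All 21 had estimates above 0 in naive against control, with a median of 0.77, and 20 of 21 had estimates below 0 in trained against naive. Trafd1, a regulator of innate immune signalling, stood at 18.5, 18.2 and 17.1 FPKM in trained, 18.9, 21.9 and 19.9 in naive and 15.4, 14.6 and 14.2 in control libraries. Psmb8, a catalytic subunit of the immunoproteasome, averaged 7.13 ± 3.49, 16.5 ± 14.03 and 3.21 ± 0.770 FPKM in the trained, naive and control libraries. Serping1, an inhibitor of the classical complement pathway, averaged 2.70 ± 0.474, 5.97 ± 4.20 and 1.47 ± 0.240 FPKM. The 1 tested target with an estimate above 0 in trained against naive was Ccl5, a chemokine of T cells and macrophages, at 3.82, 19.1 and 6.37 FPKM in trained, 2.29, 9.21 and 2.63 in naive and 0.708, 1.57 and 0.701 in control libraries.

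The conjugation system of autophagy is needed in mouse cells to load these GTPases onto vacuoles. Of its listed genes and adaptors 18 of 18 were tested, with 0 called by limma in either direction in the 4 comparisons (1 at an unadjusted p under 0.05 in each), and the median log2 fold change was 0.01 in naive against control. Atg3, its E2-like enzyme, averaged 21.3 ± 0.329, 21.6 ± 1.43 and 22.6 ± 0.662 FPKM in the trained, naive and control libraries. Trim21, an antibody receptor and ubiquitin ligase in that list, stood at 0.723, 1.27 and 1.07 FPKM in trained, 0.966, 3.71 and 3.99 in naive and 0.997, 1.26 and 0.994 in control libraries. With all libraries its adjusted p by limma was 0.591 for trained against naive and 0.303 for naive against control. Without naive replicate 1, its lowest naive library, limma called Trim21 in both comparisons and no member. The adjusted p by limma was then 0.0145 for trained against naive and 0.0298 for naive against control. Of all 12327 genes, that fit called 22 for trained against naive and 12 for naive against control. Among them were Stat2 and Bst2 in both comparisons, and Cxcl10 and Parp14 in trained against naive.

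Gbp2 and Gbp5 carry a C-terminal lipid anchor. All 8 genes tested that make or process such anchors had 0 calls by limma in the 4 comparisons, with 2 at an unadjusted p under 0.05 in naive against control. Rce1, the protease of that pathway, averaged 6.74 ± 0.409, 7.65 ± 0.607 and 6.44 ± 0.573 FPKM in the trained, naive and control libraries. Of 10 inflammasome genes, which act downstream of guanylate-binding proteins, 6 were tested and 0 called by limma in the 4 comparisons, with 3 at an unadjusted p under 0.05 in naive against control. Aim2, a DNA sensor, stood at 1.15, 1.21 and 1.51 FPKM in trained, 1.45, 1.78 and 1.37 in naive and 0.890, 1.05 and 0.824 in control libraries. Casp1, its protease, averaged 1.07 ± 0.265, 1.72 ± 1.32 and 0.543 ± 0.0765 FPKM in the same groups.

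Outside the members, the genes with the most similar profile over the 9 libraries were found by the root mean square difference between standardised log2(FPKM + 1) profiles, where 0 is an identical shape. Only tested genes that code for protein were ranked, without predicted or clone-based names and names shared by several rows. The closest were Ifi47 (0.127), a GTPase of the same family that is also called Irgd, Gbp6 (0.128), Cd274 (0.163), which encodes the checkpoint ligand PD-L1, and Spi1 (0.167), a transcription factor of myeloid cells. Next came Zbp1 (0.180), a sensor of Z-form nucleic acids, the Fc receptor gene Fcgr4 (0.184), the peptide transporter gene Tap1 (0.195) and Pnp (0.198), a purine enzyme. Zbp1 and Fcgr4 averaged under 1 FPKM in both the trained and the control group. They were tested only because of their naive levels, so the filter itself favours such a shape. The median difference over all genes tested was 1.36. The members themselves stood at 0.104 for Gbp5 to 0.387 for Gbp3, although each is part of the mean profile it is compared with. Gbp3 and Gbp7 (0.218) were less like the common profile than these 8 genes were. The measure gives shape and not size: Spi1 averaged 2.11 ± 0.457 FPKM in trained, 3.49 ± 0.984 in naive and 1.76 ± 0.102 in control libraries.

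Markers of other cell types were summed for each library. The 15 microglia markers summed to 317 to 465 FPKM in trained, 326 to 611 in naive and 255 to 315 in control libraries, and 13 of the 15 were highest in naive replicate 2. The GTPase sum as a percent of the microglia sum was 5.99, 9.65 and 9.74% in trained, 19.2, 55.2 and 25.4% in naive and 6.84, 13.2 and 6.81% in control libraries. Each naive library stood above all others by this measure too. The 12 T and NK cell markers in the table summed to 1.19 to 3.71 FPKM in trained, 0.643 to 5.78 in naive and 0.354 to 1.11 in control libraries. Of these 12, 9 were listed at 0 in naive replicate 3, where the GTPase sum was 94.5 FPKM, and 9 in control replicate 1, where it was 18.7 FPKM; Cd3e, Cd3d, Cd3g and Cd8a were at 0 in both. Gzmb, a granzyme of cytotoxic cells in the same list, stood at 0.0317, 0.0888 and 0.0382 FPKM in trained, 0.274, 1.83 and 0.120 in naive and 0.0339, 0.0349 and 0.0289 in control libraries. Like 7 of the 8 GTPases (Gbp3 is the exception), Gzmb was higher in each naive library than in any other group. This rests on low values with an unknown counting error, 0.120 in naive replicate 3 against 0.0888 in trained replicate 2. The list as a whole did not share that order. Of the 12 markers, 6 were highest in trained replicate 2 and 5 in naive replicate 2, and 7 had a higher mean in trained than in naive libraries.

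The 7 monocyte and neutrophil markers summed to 8.62 to 33.2 FPKM in trained, 10.9 to 32.4 in naive and 4.45 to 7.36 in control libraries, with S100a8 and S100a9 listed at 0 in trained replicate 3. The sums of trained replicate 2 (33.2 FPKM) and naive replicate 2 (32.4 FPKM) were close and rested mostly on Ly6c2 and Lyz2, while single markers differed. Plac8 stood at 0.150, 4.35 and 1.27 FPKM in trained, 1.97, 8.95 and 3.32 in naive and 0, 0.332 and 0.137 in control libraries. Ccr2, a chemokine receptor of inflammatory monocytes, stood at 0.0462, 0.205 and 0.139 FPKM in trained, 0.124, 0.646 and 0.0657 in naive and 0.00616, 0.0445 and 0.0420 in control libraries. Both were higher in each naive than in each control library, as were 11.2% of all genes tested, and both were highest in naive replicate 2. Their naive and trained ranges overlapped, and Ccr2 was also higher in each trained than in each control library. The Ccr2 values are low and carry an unknown counting error. Of the 7 markers, 3 were highest in naive replicate 2 and 2 in trained replicate 2. S100a8 was highest in naive replicate 3 and S100a9 in control replicate 2. The 7 B and plasma cell markers in the table were highest in trained replicate 2 in 6 cases, with the joining-chain gene Igj at 61.6 FPKM there and at 0.0716 FPKM in naive replicate 2. They summed to 40.6 to 109.9 FPKM in trained, 33.4 to 38.2 in naive and 33.6 to 46.7 in control libraries. That sum was mostly Xbp1, which other cells also express, except in trained replicate 2, where Xbp1 stood at 36.4 FPKM. Without Xbp1 the 6 others summed to 0.466, 73.5 and 22.02 FPKM in trained, 0.269, 0.315 and 0.392 in naive and 0.242, 0.346 and 0.626 in control libraries, and Ms4a1 was listed at 0 in all 3 control libraries.

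The 9 endothelial markers summed to 77.5 to 87.5 FPKM in trained, 88.9 to 111 in naive and 75.1 to 99.9 in control libraries, with 8 of the 9 highest in naive replicate 2. The 8 astrocyte markers summed to 1030 to 1149 FPKM in trained, 1118 to 1309 in naive and 1024 to 1141 in control libraries, with 6 of the 8 highest in naive replicate 2. The 10 dentate granule neuron markers, of a region next to CA1, summed to 150 to 257 FPKM in trained, 217 to 282 in naive and 116 to 221 in control libraries. A higher mean than in control was seen for 10 of 10 in naive and also for 10 of 10 in trained libraries. Over all genes tested, 55.1% had an estimate above 0 in naive against control and 47.3% in trained against control. For the 10 CA1 pyramidal neuron markers, 1 had a higher mean in naive than in control and 1 in trained than in control. The 8 choroid plexus markers summed to 45.0 to 106.8 FPKM in trained, 12.0 to 30.7 in naive and 39.8 to 796 in control libraries. Apart from the values given here, the part of these cell types in the GTPase levels was not tested.

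**Figure D5:**
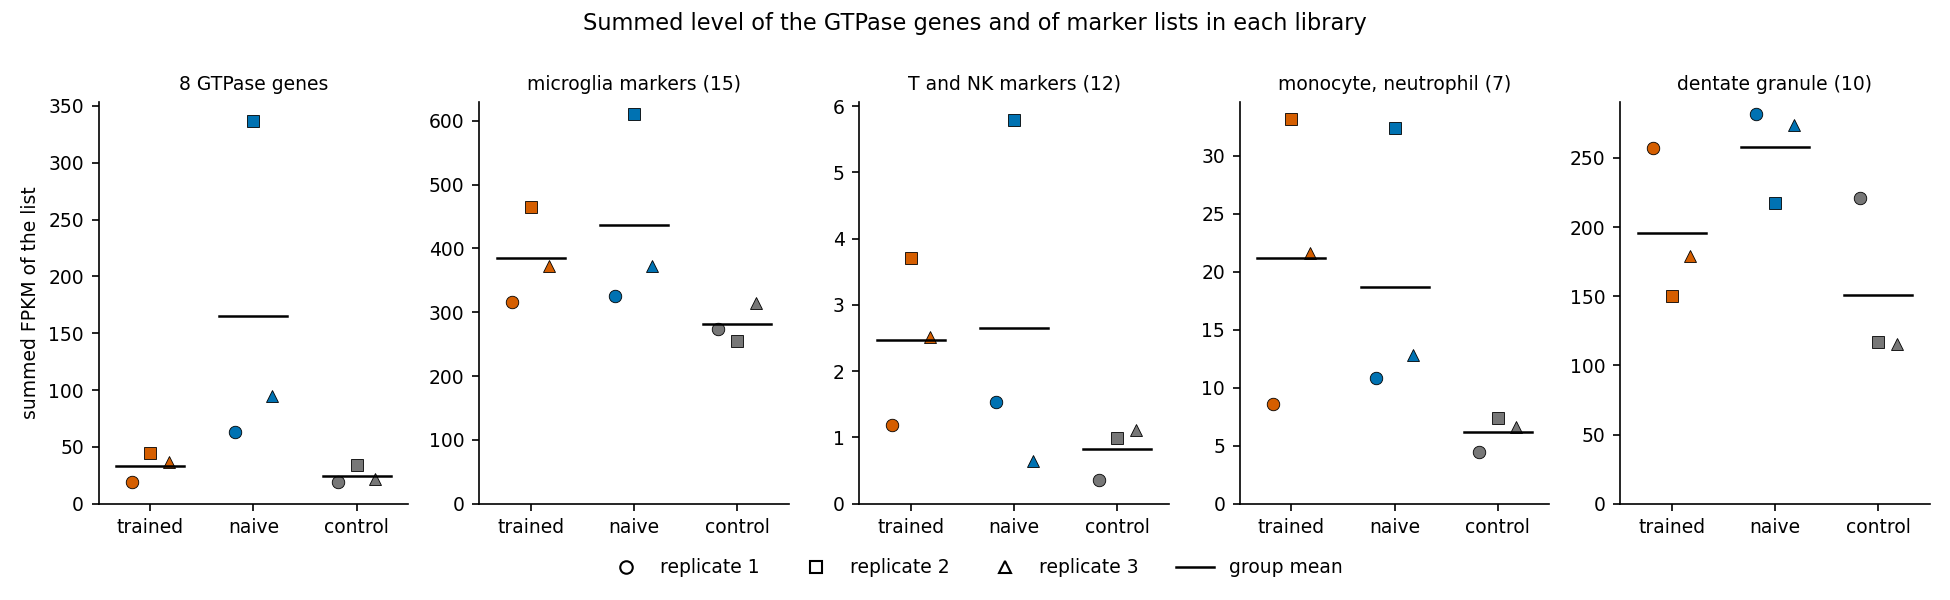
Summed FPKM (y axes, each from 0) of the 8 GTPase genes and of 4 marker lists in each library, with a bar for the group mean. The GTPase sum ranges from 18.7 to 337 FPKM and the microglia sum from 255 to 611 FPKM, and naive replicate 2 is the highest library in both.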

How the data were processed

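Polyadenylated RNA of 9 libraries was analysed, with 3 biological replicates in each of 3 groups taken from the labels. Replicates are numbered in accession order and are not paired. Per the labels, 1 µg of total RNA with an integrity number above 7.9 was made into directional libraries, and both ends were read over 50 bp. The submitters' processing notes name FastQC, TopHat 1.4.0, Cufflinks and Cuffdiff and the mouse build mm10. The authors deposited FPKM values, one per gene and library, without counts. Neither the step that wrote them nor the annotation is given in the sources used here.

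From the table of 24489 rows, 27 rows whose names had become dates and 5649 further rows at 0 in every library were left out. No scaling was applied. The 12327 genes averaging 1 FPKM or more across all 9 libraries were tested on log2(FPKM + 1), a pseudocount of 1, in limma 3.58.1 (R 4.3.3) with 3 groups, a trend in the prior variance, two-sided tests and Benjamini-Hochberg adjustment within a comparison. The method was tested on simulated data. Python 3.11.15 with pandas 2.3.3 and numpy 2.4.6 gave all other values. The alternatives were a pseudocount of 0.1, no filter, median-of-ratios scaling, quantile normalization and leaving out each library.

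The members, lists and tests were chosen with earlier results of these data known. Besides the members, H2afz and H2afv, the text names up to 4 genes per list with the smallest p for both H2A.Z shRNA groups against control, some signalling genes, and the 8 genes most like the member profile. Other genes named were chosen after their values were seen. A signalling gene that this rule names is not reported here.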

Additional observations from a re-analysis of the deposited data

How the results depend on the processing

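Over the 416 member fold changes recomputed under all alternatives, the largest move was 0.795 on the log2 scale, for Igtp without naive replicate 2. The members' own SDs between libraries within groups were 0.597 to 0.902. Leaving out 1 library of 3 cannot move an estimate by more than that SD, so the moves are not judged against it. Of the 416, 3 had the opposite sign, all for trained against control, where the largest estimate was 0.77. Medians of the members ranged, over leaving out each library, from -2.06 to -0.98 for trained against naive, 0.16 to 0.59 for trained against control, 1.08 to 2.18 for naive against control and 0.71 to 1.26 for both H2A.Z shRNA groups against control. With a pseudocount of 0.1 they were -1.77, 0.45, 2.02 and 1.24 in that order. Members called by limma numbered 0 under all settings tried, and members without overlap 0 to 6 for trained against control (7 to 8 for naive against control). Over all genes, leaving out a library gave 0 to 22 calls for trained against naive, 0 to 23 for trained against control, 0 to 15 for naive against control and 0 to 36 for both groups against control. Listed pathway genes called numbered 0 to 5 for trained against naive and 0 to 3 for naive against control, the highest without naive replicate 1. With no filter, 0 genes were called for trained against control. The causes were not tested. No paired analysis was possible because the labels give no replicate numbers shared between groups. With no counts, low levels such as those of Gbp5 carry an unknown counting error.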

Other observations

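Usp18, Mx1, Mx2 and Cxcl10, interferon targets picked because their values differ from the pattern of the GTPases, were highest in naive replicate 3 and not in naive replicate 2. Naive replicate 3 held the highest value for 16.9% of all genes tested, Bst2 and Trim21 among them. Some other interferon targets were highest in naive replicate 2, as the GTPases were, with Xaf1 at 1.24, 4.65 and 3.14 FPKM and Irf9 at 4.30, 12.5 and 8.47 FPKM in the naive libraries. Usp18, which restrains type I interferon signalling, stood at 0.542, 1.13 and 1.28 FPKM in trained, 0.798, 4.73 and 14.0 in naive and 1.37, 3.75 and 1.86 in control libraries. All trained libraries lay below all control libraries for Usp18, Mx1 and Mx2, while the 2 ranges overlapped for Cxcl10. The share of all genes with that order was not computed. Mx1, a dynamin-like antiviral GTPase, stood at 0.102, 0.256 and 0.232 FPKM in trained, 0.434, 1.70 and 5.12 in naive and 0.281, 0.642 and 0.274 in control libraries. Mx2, its relative, stood at 0.167, 0.360 and 0.519 FPKM in trained, 0.284, 1.17 and 2.70 in naive and 0.572, 1.24 and 0.670 in control libraries. The chemokine gene Cxcl10 stood at 4.18, 24.2 and 29.9 FPKM in the naive libraries. In the same libraries Gbp3 and Gbp7 stood 2.73 and 2.35 times higher in naive replicate 3 than in naive replicate 1, against 1.02 times for Gbp2 and 1.18 times for Igtp.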
